A study of Mus musculus with 2 samples.

Results

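The proteasome subunit genes are the genes with a protein-coding transcript whose symbol is Psma, Psmb, Psmc, Psmd, Psme, Psmf or Psmg followed by a number. The symbol rule found 50 genes among 21901 genes with a protein-coding transcript and 55536 annotated genes, with no measured value used in the choice. They were read by sequencing of total RNA, depleted of ribosomal RNA, from the left cerebral cortex. The source was 2 females of B6CASTF1/J, an F1 hybrid of C57BL/6J and CAST/EiJ, 8 to 10 months old. Each library held 300 ng of RNA and ERCC spike-ins, synthetic RNAs of known sequence. Animal 1 is replicate 1, animal 5 is replicate 2, the labels enter the same donor for both, and the 2 libraries are the only group. No comparison between conditions can therefore be made, and every value is a description of these 2 libraries. Both label genes were present at high levels, Psma1 at 54.47 and 57.40 TPM and Psmb5 at 86.75 and 71.50 TPM in replicates 1 and 2.

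The proteasome is the protease that degrades proteins tagged with ubiquitin in the cytosol and nucleus. Its core particle is a barrel of stacked rings, with alpha subunits in the outer rings and beta subunits in the inner rings, and some of the beta subunits carry the cutting sites. A cap made of a base, whose ATPases unfold the substrate, and a lid, which removes ubiquitin, feeds the core. In immune cells and after interferon, immune catalytic subunits replace the constitutive ones, and other activators can take the place of the cap. In neurons the proteasome turns over synaptic proteins.

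The members fall by role into 31 obligatory subunits and the rest. The obligatory core genes are the alpha subunits Psma1 to Psma7, the structural beta subunits Psmb1 to Psmb4 and the constitutive catalytic subunits Psmb5, Psmb6 and Psmb7. The obligatory cap genes are the base ATPases Psmc1 to Psmc6, the base subunits Psmd1, Psmd2 and Psmd4, and the lid subunits Psmd3, Psmd6, Psmd7, Psmd8, Psmd11, Psmd12, Psmd13 and Psmd14. The other members are the immune catalytic subunits Psmb8, Psmb9 and Psmb10, the testis alpha subunit Psma8, the thymus beta subunit Psmb11, the activators Psme1, Psme2, Psme2b, Psme3 and Psme4, the inhibitor Psmf1, and the assembly chaperones Psmd5, Psmd9, Psmd10 and Psmg1 to Psmg4. Psmc3ip matched the symbol rule but encodes a recombination factor of germ cells and no proteasome subunit.

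The comparison of constitutive and immune subunits rests on 3 replacement pairs, in which Psmb8 takes the place of Psmb5, Psmb9 that of Psmb6 and Psmb10 that of Psmb7. Each is made with a leader that is cut off, so that the active protease starts with a threonine. The reference messages of the pairs are shown at that place because they show how far reads can tell the partners apart. Each line gives 45 bases of the highest protein-coding transcript, in GENCODE M21 and build GRCm38, with the codon of the first threonine of the active enzyme in capitals.
Psmb5: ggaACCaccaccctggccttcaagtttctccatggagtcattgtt
Psmb8: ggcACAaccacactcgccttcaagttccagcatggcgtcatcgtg
Psmb6: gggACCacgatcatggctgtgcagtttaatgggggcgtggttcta
Psmb9: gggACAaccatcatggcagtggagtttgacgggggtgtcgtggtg
Psmb7: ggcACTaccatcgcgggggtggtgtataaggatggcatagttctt
Psmb10: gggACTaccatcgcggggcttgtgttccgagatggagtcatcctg
The windows lie at chr14:54616801-54617817 on the minus strand for Psmb5, chr17:34199299-34199343 on the plus strand for Psmb8, chr11:70525493-70525926 on the plus strand for Psmb6, chr17:34185756-34187252 on the minus strand for Psmb9, chr2:38642261-38643387 on the minus strand for Psmb7 and chr8:105937577-105937708 on the minus strand for Psmb10. All are coding, the Psmb8 window within exon 3 and the others across an exon junction. The leader before the marked codon has 59 codons in Psmb5 and 72 in Psmb8, 33 in Psmb6 and 20 in Psmb9, and 43 in Psmb7 and 39 in Psmb10. Within the window Psmb5 and Psmb8 differ at 10 bases, Psmb6 and Psmb9 at 11 and Psmb7 and Psmb10 at 14, against 16 to 22 for every pairing of subunits that do not replace each other. Over the annotated coding sequence from the active part on, the partners are 66.2%, 64.8% and 64.3% identical in the same order, against 51.95% to 56.2% for the other pairings. Gaps count as differences in these values. The Psmb8 transcript used, Psmb8-203, has 256 codons in all against 264 in Psmb5, although its leader is longer. Its active part is thus the shorter of the 2, and identity with another Psmb8 transcript was not computed. The longest run shared by the protein-coding transcripts of a pair was 18, 11 and 15 bases, so no stretch of 50 bases was shared.

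In the cortex the constitutive catalytic subunits outweighed the immune ones in every pair, by a wide margin for Psmb8 and Psmb9 and a narrow one for Psmb10. Psmb5, the chymotrypsin-like site, was at 86.75 and 71.50 TPM in replicates 1 and 2, and its partner Psmb8 was at 1.92 and 2.09 TPM. TPM is the length-scaled share of a gene in all transcripts of a library, so levels of different genes can be set side by side. Psmb6, the caspase-like site, was at 98.27 and 88.48 TPM, and its partner Psmb9 was at 0.91 and 1.52 TPM. Psmb7, the trypsin-like site, was at 96.54 and 94.88 TPM, and its partner Psmb10 was at 36.10 and 43.85 TPM. The groups do not overlap, since the lowest constitutive value exceeded the highest immune one. The ratio of constitutive to immune level was 45.2 and 34.2 for Psmb5 over Psmb8, 108 and 58.2 for Psmb6 over Psmb9, and 2.67 and 2.16 for Psmb7 over Psmb10.

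Psmb8 rested on 33 and 38 expected counts, with exact 95% Poisson intervals of 22.7 to 46.3 and 26.9 to 52.2 counts. Psmb9 rested on 14 and 30 counts, with intervals of 7.65 to 23.5 and 20.2 to 42.8, which overlap. The depth therefore places both genes far below their partners, and a difference of either between the animals was not tested. Psmb10 had 456 and 541 counts. Intervals here cover counting error only, since reads were not tied to molecules.

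Together the immune subunits took 12.1% of the TPM of the 6 catalytic genes in replicate 1 and 15.7% in replicate 2, a mean of 13.9% ± 2.51 (SD, n = 2). Without the Psmb7 and Psmb10 pair the share was 1.51% and 2.21%. By expected counts, which are not scaled by length, it was 10.4% (exact 95% binomial interval 9.53% to 11.3%) and 12.9% (11.9% to 13.9%). Nearly all of the immune level thus belonged to Psmb10.

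**Figure D1:**
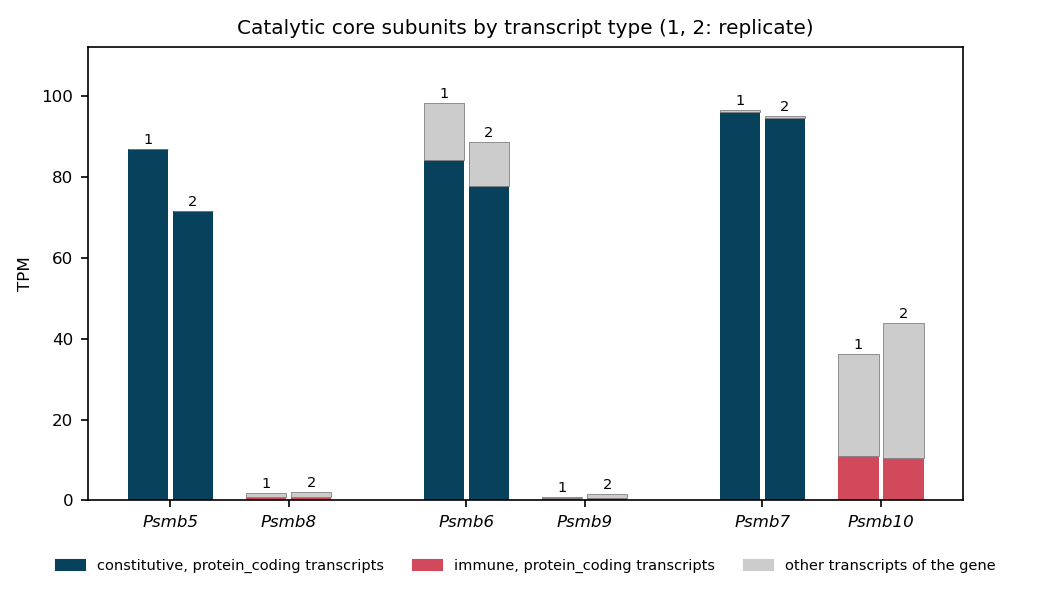
Level in TPM (bars from 0) of the 6 catalytic genes, with 1 bar per library and the replacement pairs side by side. The coloured part is TPM in protein-coding transcripts and the grey part TPM in the gene's other transcripts, which made up most of Psmb10, where the coding part was 11.01 and 10.58 TPM.

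Most of the Psmb10 level did not come from its protein-coding transcript. Psmb10-201, the only protein-coding transcript of the gene with reads, had 11.01 and 10.58 TPM. The highest transcript in both libraries was Psmb10-205, a retained-intron transcript of 554 nt that covers the 3′ part of the gene at chr8:105935736-105937038, with 21.03 and 15.29 TPM. The processed transcript Psmb10-203, of 426 nt, was at 1.66 and 12.31 TPM and the retained-intron transcript Psmb10-206, of 969 nt, at 1.24 and 5.65 TPM. The higher gene total of replicate 2 lay in Psmb10-203 and Psmb10-206, while Psmb10-201 had 241.81 and 241.72 counts. The second table, a separate quantification of the same reads, gave Psmb10-201 at 11.87 and 10.58 TPM and Psmb10-205 at 15.89 and 13.65 TPM. Over protein-coding transcripts only, Psmb7 exceeded Psmb10 8.71-fold and 8.94-fold, and the immune share of the 6 catalytic genes was 4.53% and 4.71%. The antisense gene Gm16156 spans the whole of Psmb10 on the other strand and had 0 and 2 counts. The labels name a directional kit, but the strand setting of the counting is unknown here, so reads of both strands may not have been kept apart.

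The few reads of Psmb8 and Psmb9 were also divided among transcript types. Psmb8-205, a retained-intron transcript, had 1.00 and 1.19 TPM and the coding Psmb8-203 had 0.92 and 0.90 TPM, but the second table put most of Psmb8 in the coding Psmb8-201, at 0.80 and 1.37 TPM. The Psmb8 split between transcripts is thus not settled by these tables. Psmb9-207, annotated for nonsense-mediated decay, was at 0.14 and 0.95 TPM and the coding Psmb9-204 at 0.27 and 0.57 TPM.

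The immune genes Psmb8 and Psmb9 have a shared position, whereas Psmb10 lies elsewhere, on chromosome 8. Psmb9 at chr17:34181987-34187764 and Psmb8 at chr17:34197721-34201454 flank Tap1, a peptide transporter subunit, in the class II region of the major histocompatibility complex, with 9956 bp between them. Tap1 overlaps the start of Psmb9 on the other strand and stood at 1.56 and 1.84 TPM, close to the level of its neighbour. Other genes of the peptide path were higher: B2m, the light chain of class I molecules, was at 52.43 and 59.66 TPM and Tapbp, which loads peptides, at 27.41 and 25.82 TPM. By counts scaled with TMM, a scaling by library size and composition, the 7 listed genes of this path were higher in replicate 2, though Tapbp was near 0 at a log2 difference of 0.01 and lower by TPM, and 45.6% of all 14122 genes measured were higher. Of the 7, 3 passed 1.2-fold as higher, against 14.3% of all genes. These were Tap1 with a log2 difference of 0.49 (counting SE 0.26), Tap2, the other transporter subunit, with 0.30 (0.14), and H2-K1, a class I heavy chain, with 0.28 (0.13). Tap2 was at 4.36 and 8.54 TPM on 179 and 242 counts, and H2-K1 at 11.82 and 20.79 TPM on 212 and 283 counts. For both, TPM rose more than the counts. The second table put Tap2 at 6.61 and 7.18 TPM and H2-K1 at 10.9 and 15.0 TPM.

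Cells that could bring immune subunits were set beside these values. Of 8 markers of lymphocytes and other leukocytes, Cd3e, Cd3g and Nkg7 had 0 counts in both libraries, and the list summed to 1.67 and 3.03 TPM, most of it Ptprc at 1.00 and 1.79 TPM. The 10 microglia markers were all detected, with a sum of 210.4 and 214.6 TPM, and the 7 endothelial markers summed to 109.4 and 110.0 TPM. Their part in the levels of the immune subunits was not tested. In tissue RNA, fewer cells of a type and less RNA per cell cannot be told apart.

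All 31 obligatory subunits were detected, meaning at 1 TPM or more in both libraries, and 45 of the 50 members were. Of all genes with a protein-coding transcript 59.1% were detected. The 31 stood at a median of 60.2 TPM, at 59.55 in replicate 1 and 61.97 in replicate 2, and each lay above the median detected nuclear protein-coding gene, which was at 16.6 TPM. Psmb4 was the highest member, at 127.90 and 113.21 TPM, and Psma2 the lowest obligatory one, at 31.78 and 27.87 TPM. These correspond to the 94.2 and 68.6 percentiles of the detected protein-coding genes. Over protein-coding transcripts only, the highest mean was that of Psmd2 at 108.2 TPM, with Psmb4 at 74.4 TPM, and the lowest obligatory mean was that of Psmc6 at 25.3 TPM.

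**Figure D2:**
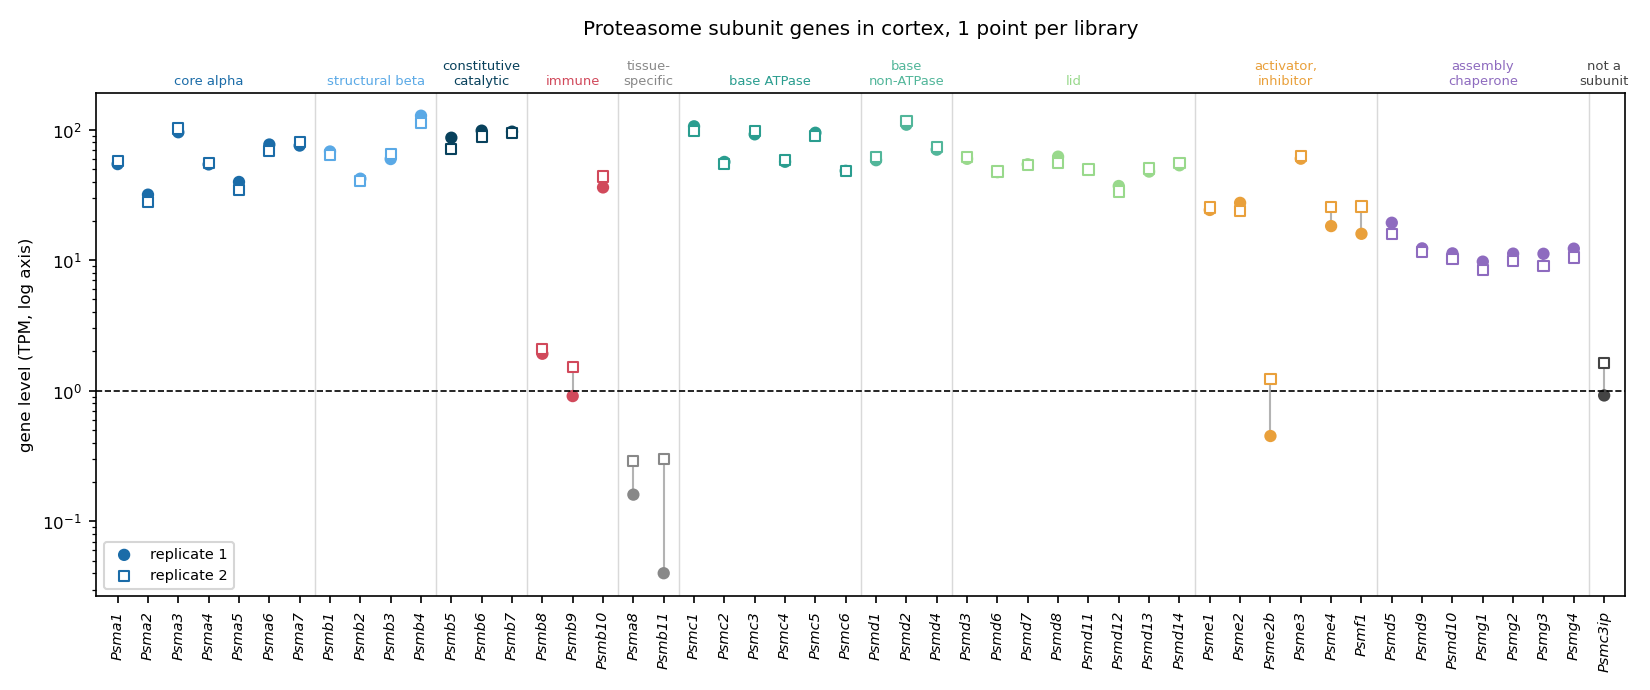
Gene level in TPM on a log axis for the 50 members, grouped by role, with a filled circle for replicate 1 and an open square for replicate 2, and the detection limit of 1 TPM dashed. The obligatory classes form a band around 60 TPM, the chaperones lie near 10.7 TPM, and Psmb8 and Psmb9 lie far below Psmb10.

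The core and the cap were at similar levels. The 14 obligatory core genes had a median of 69.5 TPM and summed to 1007 and 965 TPM, and the 17 cap genes had a median of 57.6 TPM and summed to 1103 and 1107 TPM. The class ranges overlap, from 29.8 to 120.6 TPM in the core and from 35.3 to 112.6 TPM in the cap, on means of both libraries. The order of classes by median was the constitutive catalytic subunits at 93.4 TPM, the base ATPases at 74.7, the other base subunits at 71.8, the structural beta subunits at 64.3, the alpha subunits at 55.9 and the lid at 51.7. The SD of these class medians between the libraries ran from 0.46 TPM for the base ATPases to 5.70 TPM for the constitutive catalytic subunits. The order is a description, and members are not replicates of a class.

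Within the core, the alpha and the structural beta subunits were each uneven, with an SD of log2 TPM of 0.61 and 0.64. Psma3 was at 95.53 and 102.22 TPM and Psma2 at 31.78 and 27.87 TPM, in a ring that holds its alpha subunits in equal number. Over protein-coding transcripts only, Psma3 was at 43.49 and 53.64 TPM, below Psma6 with a mean of 71.8 TPM and Psma7 with 70.8 TPM. Psma6 at 76.95 and 68.79 TPM and Psma7 at 75.54 and 80.65 TPM lay toward the top, Psma4 at 54.17 and 55.18 TPM lay beside Psma1, and Psma5 at 39.76 and 34.58 TPM lay toward the bottom. Among the structural beta subunits Psmb4 was highest and Psmb2 lowest, at 42.11 and 40.21 TPM, with Psmb1 at 68.04 and 64.40 TPM and Psmb3 at 59.55 and 65.20 TPM between them. Psmb7 was the highest and Psmb5 the lowest constitutive catalytic subunit, only 1.21-fold apart on their means.

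In the base, Psmc1, whose yeast counterpart opens the gate of the core, was highest among the ATPases at 106.09 and 97.91 TPM. Psmc6 was lowest at 48.38 and 48.54 TPM. Over protein-coding transcripts only, Psmc1 was at 78.48 and 76.19 TPM, below Psmc3 at 81.34 and 78.76 TPM and Psmc5 at 92.39 and 86.36 TPM. Psmc3 at 92.08 and 97.53 TPM and Psmc5 at 94.67 and 89.05 TPM lay beside Psmc1, whereas Psmc2 at 56.60 and 54.79 TPM and Psmc4 at 56.76 and 58.48 TPM lay beside Psmc6. The higher and the lower ATPases were sorted by these same values, so the gap between them is a description only. In the second table, from the same reads, the higher genes had means of 81.0 TPM or more. The lower genes had means of 58.1 TPM or less there. The ATPases are known to assemble as the pairs Psmc1 with Psmc2, Psmc5 with Psmc4 and Psmc3 with Psmc6, and each pair held a higher and a lower gene, a grouping seen after the values were known. In the first table Psmd2, the scaffold that docks ubiquitin-like domains of shuttle proteins, was the highest cap gene at 109.18 and 116.11 TPM. Psmd1, its companion scaffold, was lowest of the other base subunits there at 58.35 and 61.98 TPM. Psmd4, a ubiquitin receptor, was between them at 70.29 and 73.38 TPM. The second table kept neither rank. It put Psmd2 at 77.7 and 83.7 TPM, below Psmc1 at 111.5 and 99.4 TPM, and gave Psmd1 and Psmd4 means of 57.8 and 57.5 TPM. By gene TPM the lid was the most even of the classes with over 3 members, with the lid subunit Sem1 outside the symbol rule. Over protein-coding transcripts only, Psmd13 had a mean of 25.6 TPM and Psmd3 of 57.2 TPM, and evenness was not computed. Psmd3 had the highest mean at 59.78 and 61.97 TPM, Psmd12 lowest at 37.02 and 33.61 TPM, and Psmd14, the enzyme that cuts ubiquitin off the substrate, lay at 53.34 and 55.83 TPM. The structural lid subunits Psmd6, Psmd7, Psmd8, Psmd11 and Psmd13 lay between 47.26 and 62.13 TPM in every library.

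The spread of the 31 obligatory genes was 0.51 as the SD of log2 TPM, with 4.04-fold between the highest and the lowest, and 29 of the 31 lay within 2-fold of their median. The 14 core genes had a spread of 0.58 and the 17 cap genes of 0.45, and the lid members alone 0.25. Of other large complexes, the 8 genes of the cytosolic chaperonin, which folds actin and tubulin, had a spread of 0.37 around a median of 81.6 TPM. The 9 genes of the COP9 signalosome, a relative of the lid, had 0.91 around 57.2 TPM, with Cops7b, an alternative to Cops7a at the same position, lowest at 10.07 and 10.21 TPM. Without Cops7b, left out after its values were seen, the COP9 spread was 0.42, below that of the obligatory genes. All detected protein-coding genes had 1.83. The relative order of obligatory levels was kept between the libraries, with a Pearson correlation of log2 TPM of 0.98 over the 31 genes, which share library, length scaling and annotation.

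In the first table the regulators other than Psme3 were below each of the 31 obligatory members. In the second table Psme1 at 32.5 and 30.3 TPM and Psme2 at 24.7 and 22.2 TPM were above Psma2 at 23.8 and 20.5 TPM. Psme3, the nuclear activator, was at 59.93 and 62.54 TPM, within the obligatory range. Psme1 and Psme2, the interferon-inducible activator subunits that neighbour each other on chromosome 14, were at 24.26 and 25.37 TPM and at 27.50 and 23.75 TPM. In the first table the levels of Psme1 and Psme2 differ from each other by no more than the spread between the libraries, whereas in the second Psme1 was the higher in both libraries by more than that spread. Both stood above the immune catalytic subunits Psmb8 and Psmb9, which are also known as interferon-induced genes. Psme4, the large activator of histone breakdown, was at 18.25 and 25.46 TPM and Psmf1, an inhibitor of the core, at 15.93 and 25.77 TPM.

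The 7 assembly chaperones were a compact low group, from 9.09 to 17.6 TPM on means of both libraries, with a median of 10.7 TPM. Psmd5, which holds base ATPases during assembly, was highest at 19.36 and 15.89 TPM, and Psmg1, which with Psmg2 guides the alpha ring, was lowest at 9.75 and 8.43 TPM. Psmd9 and Psmd10, which also act on the base, were at 12.32 and 11.52 TPM and at 11.28 and 10.16 TPM, Psmg2 at 11.23 and 9.81 TPM, and the alpha ring factors Psmg3 and Psmg4 at 11.20 and 9.01 TPM and at 12.26 and 10.48 TPM. Every chaperone was below every obligatory subunit in both libraries. Pomp, the maturation factor of the beta ring and no member by symbol, was at 73.97 and 68.66 TPM, in the range of the subunits themselves.

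The 5 members not detected were Psmb9, Psma8, Psmb11, Psme2b and Psmc3ip. The testis subunit Psma8 had 3 counts in each library and 0.16 and 0.29 TPM. The thymus subunit Psmb11, 3410 bp from Psmb5 on chromosome 14, had 3 and 8 counts and 0.04 and 0.30 TPM. Psme2b, a single-exon copy of Psme2, had 5.99 and 17.15 counts and 0.45 and 1.23 TPM, and 69.3% of its 50-base words also occur in other genes, Psme2 among them. Psmc3ip had 15 and 30 counts and 0.92 and 1.63 TPM. The exact Poisson intervals of the 2 libraries, not scaled for depth, overlapped for each of these 5 members. Overlap is not a test of a difference between the animals, and none was run.

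Several members have close copies elsewhere, so that their levels depend on how shared reads were divided. In 15 members over 10% of the 50-base words of protein-coding transcripts also occur in another annotated gene, on either strand, and 23 members share none. The 15 are not all genes with copies. Psmb7 and Psmc3ip are among them through words on the other strand only, in Nek6 and in Mlx. The share was 54.1% for Psmb5, whose copy Gm3375 was assigned 9.05 and 8.04 TPM, and 55.4% for Psma5, whose copy Gm8394 was assigned 8.04 and 6.03 TPM. It was 55.8% for Psmb3, with the pseudogene AC114990.1 at 7.21 and 9.81 TPM, and 22.0% for Psma3, with the copy Gm13835 at 10.96 and 5.20 TPM. The levels of these members are uncertain, and how far the division of reads moved them was not tested.

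Protein-coding transcripts took 86.4% and 85.1% of the TPM of all members and 92.8% and 91.7% of their counts. Over all detected protein-coding genes the same shares were 86.2% and 85.0% of TPM, so the members as a set were near the background. Retained-intron transcripts took 8.69% and 9.07% of member TPM, against 6.17% and 7.23% over all those genes. In 24 of the 45 detected members over 90% of TPM was coding in both libraries, as in 47.1% of all detected protein-coding genes. The median obligatory subunit was at 94.5%, against 90.9% for the median of those genes.

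The detected members with the lowest coding share were Psmb10 at a mean of 27.3%, Psmb8 at 45.5%, Psma3 at 49.0%, Psmd13 at 52.2% and Psmc6 at 52.2%. In Psma3 the highest transcript was Psma3-201, annotated for nonsense-mediated decay, in replicate 1 with 28.81 TPM and the coding Psma3-204 in replicate 2 with 26.99 TPM. The second table listed Psma3-204 at 0 in both libraries and put the coding level in the short Psma3-208, at 45.55 and 55.12 TPM. In Psmd13 the highest transcript was Psmd13-211, annotated for nonsense-mediated decay, at 19.71 and 16.20 TPM, and it was also the highest in the second table at 20.85 and 19.44 TPM. In Psmc6 the coding Psmc6-201 held 24.75 and 25.87 TPM but 958.29 and 1041.15 of 1201 and 1327 counts. It is 2234 nt long, against 813 nt for Psmc6-208, the decay transcript that follows it on the mean of both libraries but not in either library alone. The second place was held by the retained-intron Psmc6-205 in replicate 1, at 8.10 TPM, and by the retained-intron Psmc6-209 in replicate 2, at 7.64 TPM. Psmb4 had the same kind of split, with 75.80 and 73.04 TPM in the coding Psmb4-201 and 44.30 and 30.03 TPM in the retained-intron Psmb4-202. The second table put Psmb4-202 at 4.67 and 6.65 TPM and gave most of the retained-intron level to Psmb4-204, at 47.5 and 38.2 TPM, and Psmb4-203, at 27.5 and 34.1 TPM.

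**Figure D3:**
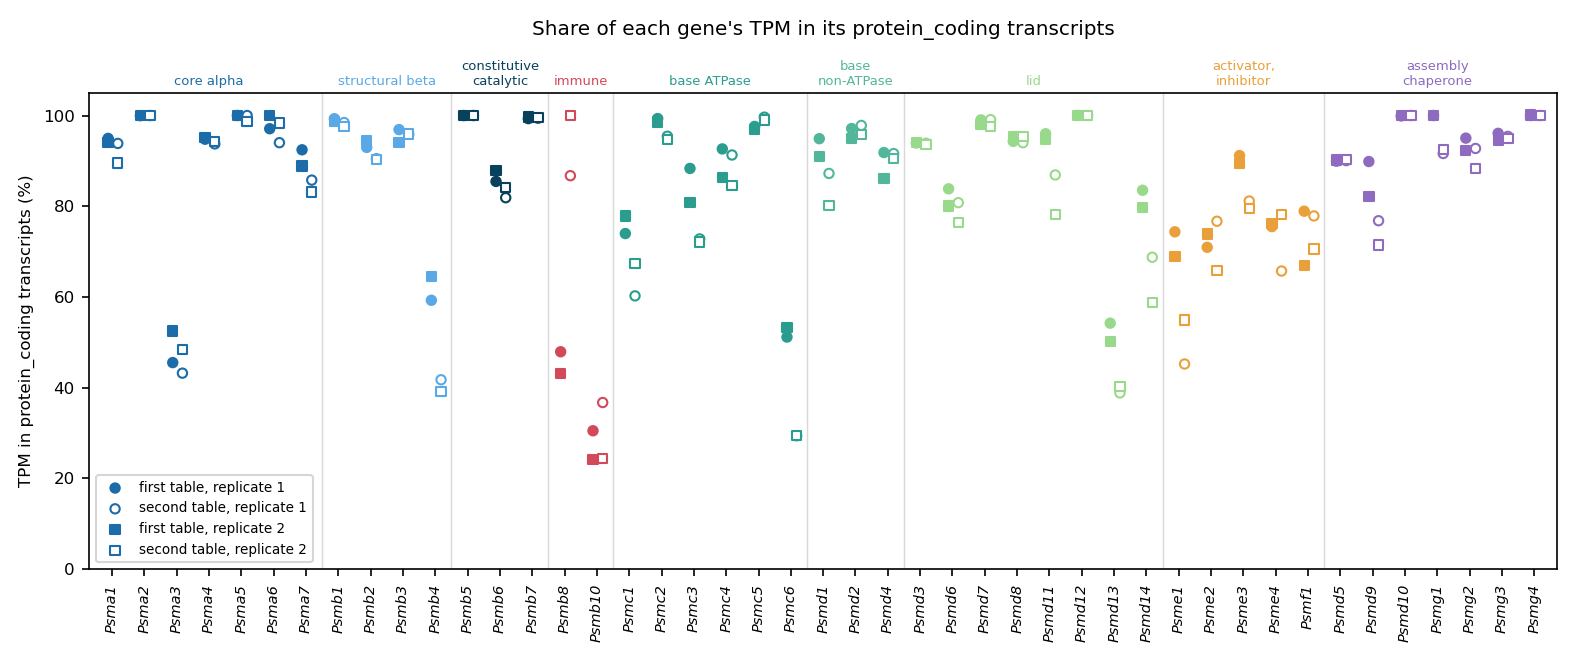
Percent of each detected member's TPM in protein-coding transcripts, with filled symbols for the first table and open symbols for the second, circles for replicate 1 and squares for replicate 2. For the filled symbols 24 of the 45 members lie above 90% in both libraries, Psmb10, Psma3, Psmd13 and Psmc6 lie low in both tables, and Psmb8 is low in the first table only.

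The highest transcript was the same in both libraries for 42 of the 45 detected members, against 86% of all detected protein-coding genes with more than 1 transcript. It was of the protein-coding type in both libraries for 41 of the 45, against 89.3%. The 4 exceptions are Psma3, Psmb8, Psmb10 and Psmd13, and the members whose leading transcript changed between the libraries are Psma3, Psmd9 and Psmd10. With the second table included, 35 of the 45, or 77.8%, had 1 leading transcript throughout, against 68.6% of all those genes. Gene totals moved less between the tables than transcripts did: among detected members the first table gave between 0.78 and 1.45 times the second. The single member past 1.5-fold was the undetected Psmb11.

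Between the animals the members differed little. A log2 difference is replicate 2 minus replicate 1 of TMM-scaled log2 CPM (counts scaled by library size), and it was taken for the 44 members with a mean of at least 50 expected counts. With 1 library per animal it has no replicate check, and the SE given is of counting only. Of the 44, 2 passed 1.2-fold as higher in replicate 2, against 14.3% of all 14122 genes at that depth, and 6 passed as lower, against 13.1%. The authors' credibility intervals of TPM, whose level is not stated, did not overlap for 3 of the 44, against 19.8% of all genes. The median member log2 difference was -0.09, against -0.02 over all genes, and the median size was 0.11 against 0.15. None passed 2-fold.

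**Figure D4:**
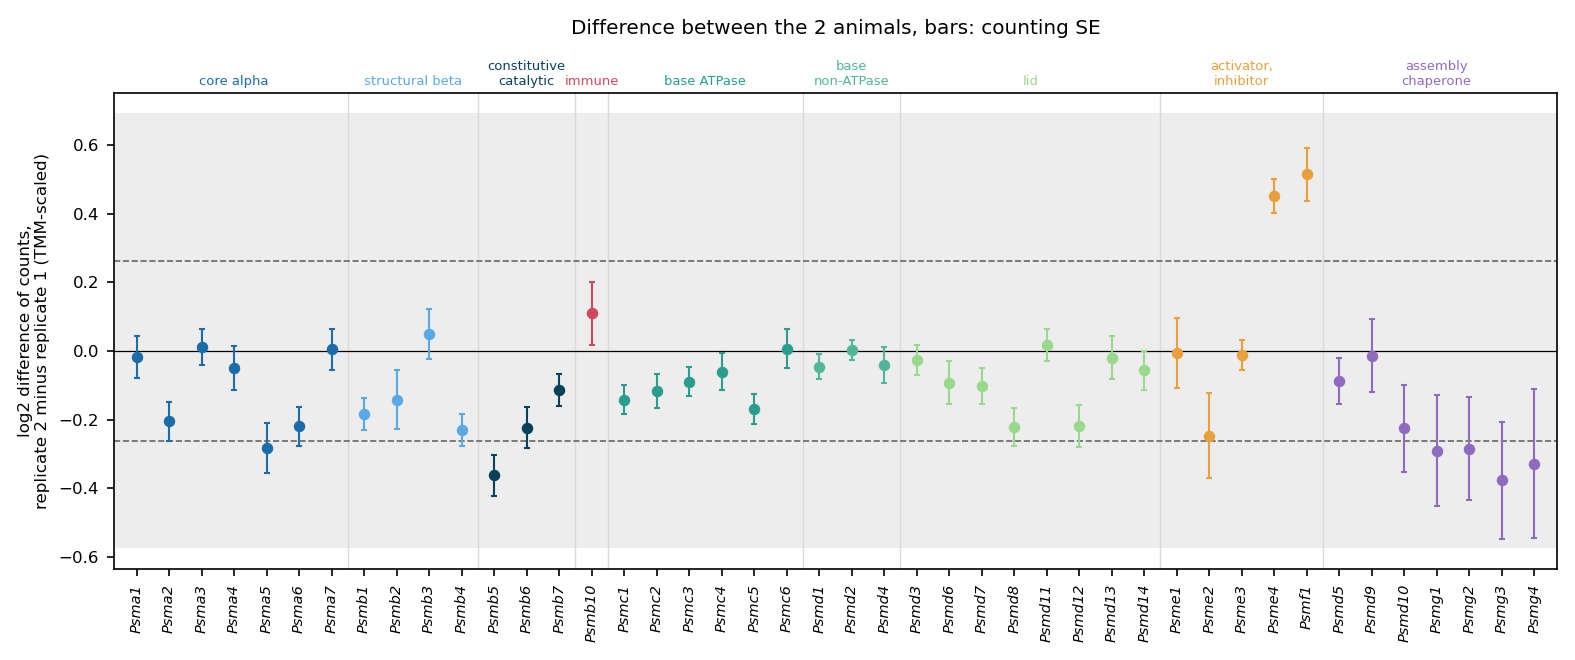
Log2 difference of TMM-scaled counts, replicate 2 minus replicate 1, for the 44 members with a mean of at least 50 counts, with counting SE as bars. Dashed lines mark 1.2-fold and the grey band spans the central 95% of all genes, from -0.57 to 0.69, and only Psme4 and Psmf1 lie above the upper dashed line.

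Psmf1 and Psme4 were the members higher in replicate 2. Psmf1 had 562 and 883 counts, a log2 difference of 0.51 (counting SE 0.08), and 8.30% of all genes differed by as much. Its coding counts in the first table were 388.4 and 417.5, with Psmf1-202 at 242.32 and 417.50 and Psmf1-201 at 146.08 and 0. By these counts most of the rise lay outside coding transcripts, while its coding TPM was 12.57 and 17.24 of 15.93 and 25.77. The decay transcript Psmf1-206 had 50.14 and 221.46 counts and the retained-intron Psmf1-204 had 72.47 and 164.82. The second table gave Psmf1-206 the opposite order, at 2.04 and 0.75 TPM, with Psmf1-202 at 9.18 and 17.6 TPM. There coding transcripts held 77.9% and 70.6% of the Psmf1 totals of 13.8 and 24.9 TPM. Which transcripts carried the rise is thus not settled by these values. Psme4 had 1440 and 2166 counts, a log2 difference of 0.45 (SE 0.05), and the coding Psme4-201 held 1382.58 and 2085.49 of these counts. Both kept this direction when scaled by DESeq2 size factors, library totals or spike-in totals, and in the second table. Neither shares a 50-base word with another gene.

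The 6 members lower in replicate 2 were Psmb5, Psma5, Psmg1, Psmg2, Psmg3 and Psmg4. Psmb5 had 1252.76 and 1072.25 counts and a log2 difference of -0.36 (SE 0.06), Psma5 had 821.67 and 742.79 counts and -0.28 (SE 0.07). The chaperones Psmg1 to Psmg4 lay between -0.28 and -0.38 with an SE of 0.15 to 0.22, on 83 to 194 counts. All 7 assembly chaperones and 25 of the 31 obligatory subunits were lower in replicate 2, by small amounts, as were 54.4% of all genes. Under spike-in scaling none of the 44 members passed 1.2-fold as lower, against 3.03% of all genes, and 11 passed as higher, against 48.1%. Spike-in scaling moved the median of all genes to 0.25. The member median minus the median of all genes was -0.07 under TMM, DESeq2, library totals and spike-in totals. A scaling shifts all genes by nearly the same amount, so this offset could not differ between scalings and is no check on it. Under TMM the median log2 difference of the chaperonin genes was -0.27 and that of the COP9 genes -0.07.

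Other genes of the pathway place the members among their partners. Transcription of subunit genes is known to be raised by Nfe2l1 when the proteasome fails, and Nfe2l1 was at 148.92 and 142.50 TPM, above every member, while its relative Nfe2l2 was at 6.55 and 7.71 TPM. In the list of transcription and processing factors Nfyb, a subunit of the CCAAT-binding factor, was next at 26.30 and 31.05 TPM, and Nfya, another, was the only 1 of 9 measured past 1.2-fold, with a log2 difference of -0.63 on 640 and 454 counts. Irf1, which acts after interferon, was at 3.13 and 3.21 TPM. Among cap partners Usp14, a deubiquitinase of the base, was highest at 83.46 and 82.24 TPM, Ube3a, a ubiquitin ligase, followed at 67.68 and 71.13 TPM, and Sem1, a small lid subunit that the symbol rule does not catch, was at 20.13 and 17.13 TPM and the only 1 of 7 past 1.2-fold, at -0.31. In the assembly and import list Ipo9, an importin, was at 73.10 and 85.65 TPM, Akirin2, an adaptor for nuclear import, at 46.60 and 49.06 TPM, and none of the 3 measured passed 1.2-fold. Paaf1 was not found under that symbol.

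The highest gene of the ubiquitin list stood far above the subunits. Ubb, a polyubiquitin gene, was at 920.72 and 899.32 TPM. The activating enzyme Uba1 was at 173.68 and 184.82 TPM, and Uba6, the alternative enzyme, was at 13.10 and 8.49 TPM and the only 1 of 15 measured genes of this list past 1.2-fold, at -0.64. Ddi1 had 0 counts in both libraries.

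Promoter windows of 300 bases, from 250 before to 50 after the start, were found in RefSeq (GRCm38.p6) for 42 of the 50 members. The windows are set beside the levels as a description, and a match is not a site. The motif CCGGAAG of ETS factors, on either strand, was in the windows of 15 of the 42 members, which is 35.7%, against 9.93% of 27025 genes and 19.2% of 10090 detected protein-coding genes. Of the cap genes Psmc1, Psmc2, Psmc6, Psmd2, Psmd4, Psmd6, Psmd11, Psmd12 and Psmd13 held it, and none of the catalytic genes with a window did. The other holders were Psma6 of the core, Psme3, Psme4, Psmg1, Psmg3 and Psmc3ip, which is no proteasome subunit. Windows were not counted by class, so core and cap are not compared. TGACNNNGC, the motif of antioxidant response elements to which Nfe2l1 and Nfe2l2 bind, was in 6 of the 42 (Psmb5, Psmb6, Psmc6, Psmd9, Psmd12 and Psme4), or 14.3%, against 16.7% of detected genes. TTCNNNGAA, the motif of interferon-gamma activated sites, was in Psmb8, Psmd2 and Psmg1, or 7.14%, against 8.08%. GAAANNGAA of interferon-stimulated elements was in 7 (Psmb3, Psmb4, Psmc2, Psmd4, Psmd9, Psme1 and Psmg4), or 16.7%, against 8.23%. The interferon-induced Psme1 was among them, but the windows of Psmb8 and Psmb9, also known as interferon-induced, did not hold it. CCAAT was in 15, or 35.7%, against 42.9%.

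Psmb5 and Psmb8 are shown as the replacement partners at the chymotrypsin-like site, and Psme4 as a member higher in replicate 2 whose window holds the ETS and the antioxidant motif. Capitals mark TGACNNNGC in Psmb5, TTCNNNGAA in Psmb8, and in Psme4 CCGGAAG followed by the reverse strand of TGACNNNGC.
Psmb5: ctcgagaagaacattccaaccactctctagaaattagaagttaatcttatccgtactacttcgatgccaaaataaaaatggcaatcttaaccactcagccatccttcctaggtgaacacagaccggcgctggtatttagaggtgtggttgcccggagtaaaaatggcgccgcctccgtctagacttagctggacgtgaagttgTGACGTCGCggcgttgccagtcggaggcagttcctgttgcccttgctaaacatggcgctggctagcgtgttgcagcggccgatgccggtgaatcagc
Psmb8: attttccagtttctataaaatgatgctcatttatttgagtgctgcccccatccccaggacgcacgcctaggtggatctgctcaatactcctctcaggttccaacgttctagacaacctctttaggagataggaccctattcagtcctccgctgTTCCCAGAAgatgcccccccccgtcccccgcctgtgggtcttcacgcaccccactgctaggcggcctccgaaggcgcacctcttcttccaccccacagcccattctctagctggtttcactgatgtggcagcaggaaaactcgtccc
Psme4: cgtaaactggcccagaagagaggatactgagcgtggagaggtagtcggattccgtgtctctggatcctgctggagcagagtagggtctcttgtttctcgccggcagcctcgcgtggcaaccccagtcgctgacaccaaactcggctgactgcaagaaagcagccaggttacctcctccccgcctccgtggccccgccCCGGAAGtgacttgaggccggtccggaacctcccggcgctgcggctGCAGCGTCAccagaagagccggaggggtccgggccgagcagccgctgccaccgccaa
The windows lie at chr14:54617946-54618245 on the minus strand for Psmb5, chr17:34197945-34198244 on the plus strand for Psmb8 and chr11:30771525-30771824 on the plus strand for Psme4. The Psmb8 window, set by the RefSeq start, lies inside the gene as GENCODE annotates it, downstream of the starts of the coding Psmb8-203 at 34197721 and Psmb8-201 at 34197790, so it is not the region before those transcripts. The window of Psmb5 holds no TTCNNNGAA and that of Psmb8 no TGACNNNGC, which says only that these letters are not in these windows.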

How the data were processed

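Total RNA of 2 cortex libraries, 1 per animal, formed 1 group. Per the labels, a directional kit was used, and per the deposited readme reads were placed on mm10 with GENCODE M21. The aligner, the counter and its strand setting are not given in the sources used. The authors deposited expected counts (estimated counts without normalization, reads with several matches being split), TPM, the percent of gene TPM per transcript, and credibility bounds, which are scores of unstated level. The second transcript table, also deposited, gives estimated counts and TPM from a separate quantification.

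Total expected counts were 28327434 and 30234441, of which members took 0.201% and 0.197%. Levels are deposited TPM. Expected counts were rounded, scaled by TMM (edgeR 4.0.16, R 4.3.3) and turned to log2 CPM with a prior count of 1, and checked on simulated data. DESeq2 1.42.0 gave an alternative scaling. No test was run, since 1 group has no contrast, and whether the animals are separate donors rests on their numbers, so spread between libraries may be partly technical. Reads of the hybrid were placed on the reference, so CAST/EiJ reads may be counted less often.

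Genes named in full are the catalytic genes, the extremes of each class, members past 1.2-fold, the 5 lowest coding shares, undetected members, members past 1.5-fold between tables, and of each pathway list the 2 highest and all past 1.2-fold. Other genes given with values were chosen after their values were seen. Some genes of the pathway lists are not reported here. Members and lists were chosen with earlier results of these data known. Shared words are 50-base stretches of a gene's protein-coding transcripts found in another gene, on either strand. Coding identity came from a global alignment, with gaps counted as differences.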

Additional observations from a re-analysis of the deposited data

How the results depend on the processing

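Class medians moved with the level used, by more than the SD between the libraries. In the second table they were 49.9 (alpha), 61 (structural beta), 71.7 (constitutive catalytic), 1.39 (immune catalytic), 69.5 (base ATPase), 57.8 (other base), 45.9 (lid), 9.83 (chaperone) and 57.5 (all obligatory) TPM, and over protein-coding transcripts only they were 51.9 (alpha), 62.5 (structural beta), 80.9 (constitutive catalytic), 0.91 (immune catalytic), 66.2 (base ATPase), 63.9 (other base), 45.8 (lid), 17.2 (activator and inhibitor) and 55.9 (all obligatory) TPM. Rescaled over nuclear protein-coding genes they were 116.0 (alpha), 133.4 (structural beta), 193.8 (constitutive catalytic), 4.16 (immune catalytic), 0.407 (tissue-specific), 155.1 (base ATPase), 149.0 (other base), 107.2 (lid), 48.4 (activator and inhibitor), 22.3 (chaperone) and 124.8 (all obligatory) TPM. With either library left out the medians ran from 54.5 to 57.4 (alpha), 63.8 to 64.8 (structural beta), 88.5 to 96.5 (constitutive catalytic), 1.92 to 2.09 (immune catalytic), 0.1 to 0.295 (tissue-specific), 73.8 to 74.4 (base ATPase), 70.3 to 73.4 (other base), 51.3 to 52.1 (lid), 21.3 to 25.4 (activator and inhibitor), 10.2 to 11.3 (chaperone), 59.5 to 62 (all obligatory) TPM. The immune share of the catalytic genes was 4.62% over protein-coding transcripts, where the noncoding transcripts of Psmb10 are left out, and 12.1 to 15.7% with a library left out. The spread of the obligatory genes was 0.57 in the second table, 0.53 over protein-coding transcripts, 0.50 as log2(TPM + 1) and 0.50 to 0.52 with a library left out. The coding share of member TPM was 78.7% in the second table, 92.3% by counts and 85.1 to 86.4% with a library left out. The number of detected members stayed between 44 and 48, and that of members with 1 leading transcript between 42 and 44. Members past 1.2-fold were 5 under library totals and 0 past 1.5-fold, and 8 to 12 under the other alternatives. The median log2 difference of members changed sign under spike-in totals, to 0.19, where the scaling itself moves all genes. Psme4 and Psmf1 passed 1.2-fold under all 4 scalings and in the second table, while Psma5 missed it in the second table, at -0.24, Psma5, Psmg1 and Psmg2 missed it under library totals and all 6 members lower in replicate 2 missed it under spike-in totals. A difference between the animals cannot be computed with a library left out. No paired analysis was possible because the 2 libraries form 1 group. Depth limits Psmb8, Psmb9 and the other members below 50 counts.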
